A study of Mus musculus with 4 samples.

Results

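The genes described here were 8 components of the Notch pathway, the receptors Notch1, Notch2 and Notch3, the ligands Jag1 and Dll1, and the transcription factors Hes1, Hey1 and Heyl, chosen by name from the 32285 genes counted. They were followed in C3H10T1/2 cells, a mouse mesenchymal progenitor line that can be turned towards muscle and fat by 5-azacytidine (5-Aza), an inhibitor of DNA methylation. The cells carried a lentiviral transgene for histone H3, wild type (H3WT) or with an arginine-to-cysteine change (H3R26C), were kept in puromycin and retained their own H3 genes. Single cells were captured on the 10x platform in 4 libraries, 1 for each of H3WT with the vehicle DMSO, H3WT with 5-Aza, H3R26C with DMSO and H3R26C with 5-Aza. No difference between these libraries therefore has a replicate check among them. In the paper 5-Aza was given briefly and the cells were collected weeks later, so 5-Aza values are not from cells under the drug. The sources do not give the time at which DMSO cells were taken, so treatment and time in culture cannot be told apart.

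Notch receptors are cut after they bind a ligand on a neighbouring cell, and the released intracellular domain joins the DNA-binding protein Rbpj to switch on genes such as Hes1, Hey1 and Heyl. Those targets encode basic helix-loop-helix repressors. In skeletal muscle the pathway is known for holding progenitors back from differentiation, with Dll1 as a ligand presented by cells that have begun to differentiate.

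A barcode was kept with at least 5000 unique molecular identifiers (UMIs), at least 1500 genes and at most 20% mitochondrial UMIs, which left 22049 of 39891 cells, between 3710 and 7619 per library. The kept cells of a library held 84060490 to 110712425 UMIs. Cells in which 34 sarcomeric genes took at least 1% of UMIs were called muscle-like. There were 171 in H3WT 5-Aza (2.85%) and 232 in H3R26C 5-Aza (3.05%), and none among 3710 and 4727 cells with DMSO, which allows shares of up to 0.0809% and 0.0635%. Only 9 and 13 cells of the 5-Aza libraries lay between 0.9% and 1.1%. The shares depended on the cell filter: with at least 1000 UMIs and 500 genes, 1044 of 8132 H3WT and 980 of 9732 H3R26C cells were muscle-like, which also turned the order of the libraries. The muscle-like cells held Myog, the regulator of terminal muscle differentiation, at 1162 and 1469 CPM (UMIs of a gene scaled to 1000000 UMIs in all), with Myf5 and Myf6 at 0 in both libraries and Pax7 at 0 in H3WT. They also held mural cell markers at 4543 and 4253 CPM in sum, against 279.8 to 449 CPM in the other cells. Most of that sum was the smooth muscle actin gene Acta2, at 3788 and 3459 CPM, and the mural markers Rgs5, Myh11 and Cnn1 were at 0 in H3WT. Mesenchymal markers summed to 11515 to 13082 CPM in the other cells, although Nt5e was at 0 in both DMSO libraries, and to 4535 and 4441 CPM in the muscle-like cells. Endothelial, blood, epithelial and neural marker sums stayed at or below 17.9 CPM. In the other cells sarcomeric genes summed to 667 and 635 CPM with 5-Aza and to 37.8 and 33.2 CPM with DMSO, and how much of this was free RNA was not tested. Median depth of the other cells was 22420 and 16598 UMIs with DMSO and 13149 and 13057 UMIs with 5-Aza. Mitotic cells, those with at least 2 of 12 mitotic genes detected at equal depth, made up 5.12%, 8.56%, 10.0% and 20.9% of H3WT DMSO, H3WT 5-Aza, H3R26C DMSO and H3R26C 5-Aza. The parts of depth and of the cell cycle in the values that follow were not tested, except where a value restricted to non-mitotic or thinned cells is given.

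The promoter letters of the members are shown because 5-Aza acts on CpG methylation and because muscle regulatory factors bind E-boxes, the letters CANNTG. RefSeq promoter windows for build GRCm38.p6, from 250 bases before to 50 bases after a start, were found for Notch1, Notch2, Notch3, Jag1 and, with 2 starts, Dll1. They held 15 to 41 CpG, against a median of 7 and quartiles of 3 and 20 over 32851 promoters. The letters TGGGAA, the core bound by Rbpj, stood on neither strand in any of the 6 windows, while 25.6% of all promoters held them. With so few windows this absence does not set them apart. No window was found for the targets Hes1, Hey1 and Heyl, so their promoters were not read. CANNTG, which reads alike on both strands, stood in 3 of 6 windows, against 72.3% of all promoters, so its presence does not set these windows apart. The windows of Dll1, which was higher in muscle-like cells, and of Jag1 and Notch3, which were lower there, follow 5′ to 3′ with each CANNTG in capitals and lie on the minus strand at chr17:15375774-15376073 and chr17:15376883-15377182 (Dll1), chr2:137116471-137116770 (Jag1) and chr17:32166841-32167140 (Notch3).
Dll1, first start: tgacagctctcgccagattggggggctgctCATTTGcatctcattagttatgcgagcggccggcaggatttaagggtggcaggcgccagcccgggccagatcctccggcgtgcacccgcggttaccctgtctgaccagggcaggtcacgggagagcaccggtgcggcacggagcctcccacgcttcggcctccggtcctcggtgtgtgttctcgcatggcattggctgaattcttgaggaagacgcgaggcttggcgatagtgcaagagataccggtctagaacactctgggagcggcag
Dll1, second start: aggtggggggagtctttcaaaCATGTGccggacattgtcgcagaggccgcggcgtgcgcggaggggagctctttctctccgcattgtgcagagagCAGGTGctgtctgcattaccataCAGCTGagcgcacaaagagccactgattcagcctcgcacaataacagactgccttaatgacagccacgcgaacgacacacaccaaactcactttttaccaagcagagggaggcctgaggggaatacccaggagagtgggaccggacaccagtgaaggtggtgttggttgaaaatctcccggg
Jag1: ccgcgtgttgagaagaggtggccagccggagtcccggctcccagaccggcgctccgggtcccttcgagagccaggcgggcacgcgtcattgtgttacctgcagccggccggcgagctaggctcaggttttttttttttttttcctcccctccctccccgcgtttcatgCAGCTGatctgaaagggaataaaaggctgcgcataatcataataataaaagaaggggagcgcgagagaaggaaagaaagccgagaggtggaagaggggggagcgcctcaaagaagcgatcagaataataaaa
Notch3: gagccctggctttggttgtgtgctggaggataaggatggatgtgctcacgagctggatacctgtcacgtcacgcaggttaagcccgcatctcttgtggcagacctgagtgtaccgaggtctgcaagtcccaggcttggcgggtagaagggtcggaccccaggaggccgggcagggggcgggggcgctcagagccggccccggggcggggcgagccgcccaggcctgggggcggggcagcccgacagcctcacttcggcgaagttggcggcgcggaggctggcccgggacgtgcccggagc
The second Dll1 window held 3 E-boxes, the first Dll1 window and the Jag1 window 1 each, and the Notch3 window none. Methylation and factor binding were not measured in these libraries.

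Notch3, a receptor best known from mural cells and muscle progenitors, was the member that differed most between libraries among those with a mean of at least 5 CPM. Its gene spans chr17:32120820-32166852 (minus strand, GRCm38) and overlaps Gm17276 on the opposite strand. In the other cells it stood at 9.35 CPM in H3WT DMSO (95% exact Poisson interval 8.72 to 10.0), 19.2 CPM in H3WT 5-Aza (18.3 to 20.2), 26.6 CPM in H3R26C DMSO (25.5 to 27.7) and 40.4 CPM in H3R26C 5-Aza (39.2 to 41.7). None of these 4 intervals overlapped, and all intervals in this text cover counting error only, not the spread between cultures. The muscle-like cells held less Notch3 than the other cells of their library, 6.80 CPM in H3WT (4.03 to 10.8) and 11.96 CPM in H3R26C (9.03 to 15.5). Between H3R26C and H3WT the ratio was 2.84 with DMSO (2.62 to 3.08) and 2.11 with 5-Aza (1.99 to 2.23). Between 5-Aza and DMSO it was 2.05 in H3WT (1.89 to 2.24) and 1.52 in H3R26C (1.45 to 1.60), and the second of these was 0.741 times the first (0.671 to 0.818). Among cells that were not mitotic the ratio of H3R26C to H3WT with DMSO was 3.02. After each cell was thinned to 5000 UMIs, 4.12%, 8.33%, 12% and 17.6% of the other cells had a Notch3 UMI in H3WT DMSO, H3WT 5-Aza, H3R26C DMSO and H3R26C 5-Aza. Without thinning those shares were 16.7%, 20.4%, 33.0% and 38.1%. The order of libraries was thus alike in the share of cells and in the level. The paper's bulk RNA-seq of replicate cultures of this line names Notch3 among genes that differed from H3WT in both H3R26C and H3R2C. H3R2C is another arginine-to-cysteine mutant, the direction was shared by both mutants, and no fold limit was set. Neither 5-Aza nor DMSO is named for those bulk cultures. The paper's main text gives no direction for Notch3, and the bulk values were not compared with these.

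Notch1 and Notch2, receptors expressed widely in mesenchymal cells, varied less. Notch1 (chr2:26457903-26516663, minus strand, overlapping Gm13568 and 0610009E02Rik) stood at 32.0 CPM in H3WT DMSO, 27.5 in H3WT 5-Aza, 31.8 in H3R26C DMSO and 23.5 in H3R26C 5-Aza, and at 34.0 and 31.0 CPM in the muscle-like cells of H3WT and H3R26C. Down this order from 34.0 to 27.5 CPM each neighbouring pair had a ratio whose interval held 1. Only H3R26C 5-Aza, at the low end, was set apart from its neighbour, though groups that are not neighbours could still differ. The 5-Aza to DMSO ratio was 0.857 in H3WT (0.811 to 0.907) and 0.740 in H3R26C (0.700 to 0.782). Notch2 (chr3:98013527-98150361, plus strand) stood at 41.1, 42.9, 39.2 and 31.8 CPM in H3WT DMSO, H3WT 5-Aza, H3R26C DMSO and H3R26C 5-Aza, with 39.3 CPM in the H3WT and 22.4 CPM in the H3R26C muscle-like cells. Its 5-Aza to DMSO ratio was 1.04 in H3WT (0.994 to 1.09) and 0.811 in H3R26C (0.772 to 0.851). The H3R26C muscle-like cells had 0.571 times the level of the H3WT muscle-like cells (0.431 to 0.756) and 0.705 times that of the other H3R26C cells (0.575 to 0.856). Without the 5% of cells with the most UMIs the second of these ratios turned to 1.05.

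Jag1, a ligand that signals to Notch receptors on adjacent cells (chr2:137081456-137116644, minus strand), stood at 12.9 CPM in H3WT DMSO, 14.5 in H3WT 5-Aza, 11.5 in H3R26C DMSO and 9.79 in H3R26C 5-Aza. In the muscle-like cells it was at 5.29 CPM in H3WT (14 UMIs) and 1.92 CPM in H3R26C (9 UMIs), and every neighbour in the order of the 6 levels had a ratio whose interval excluded 1. With 5-Aza the ratio to DMSO was above 1 in H3WT, 1.13 (1.04 to 1.22), and below 1 in H3R26C, 0.855 (0.782 to 0.934). The ratio of muscle-like to other cells was 0.364 in H3WT (0.198 to 0.613) and 0.196 in H3R26C (0.0895 to 0.374).

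Dll1, the ligand of differentiating muscle cells (chr17:15367354-15376872, minus strand), was low in the other cells of all 4 libraries. It stood at 0.978 CPM in H3WT DMSO (85 UMIs), 1.2 in H3WT 5-Aza (98 UMIs), 0.833 in H3R26C DMSO (70 UMIs) and 1.31 in H3R26C 5-Aza (139 UMIs), and in the order of these levels neighbours had ratios whose intervals held 1. Of the 5-Aza to DMSO ratios, that of H3WT was 1.23 (0.908 to 1.66) and that of H3R26C was 1.57 (1.17 to 2.13), which excluded 1. The muscle-like cells held 9.07 CPM in H3WT (5.81 to 13.5) and 19.9 CPM in H3R26C (16.0 to 24.3). Muscle-like cells thus had a Dll1 level 7.56 times that of other cells in H3WT (4.63 to 11.9) and 15.1 times in H3R26C (11.5 to 19.8). The H3WT value rests on 24 UMIs in 15 of 171 cells, of which 10 UMIs came from 3 cells. The H3R26C value rests on 93 UMIs in 49 of 232 cells, of which 20 came from 3 cells. Without the Dll1 UMIs of those 3 cells, which stayed in the total, the levels were 5.29 and 15.6 CPM. Between the muscle-like cells of H3R26C and H3WT the ratio was 2.19 (1.39 to 3.59). At equal depth 2.92% and 6.47% of the muscle-like cells had a Dll1 UMI (8.77% and 21.1% without thinning, at median depths of 13181 and 18363 UMIs), against 0.402% to 0.512% of the other cells in the 4 libraries, DMSO libraries without muscle-like cells included.

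Heyl, a target of the pathway that is prominent in mural and muscle precursor cells (chr4:123233556-123249875, plus strand), was low throughout and differed by the largest factor between treatments. In the other cells it stood at 0.322 CPM in H3WT DMSO (28 UMIs), 2.72 in H3WT 5-Aza (222 UMIs), 0.749 in H3R26C DMSO (63 UMIs) and 5.67 in H3R26C 5-Aza (601 UMIs). The 5-Aza to DMSO ratio was 8.43 in H3WT (5.67 to 13.0) and 7.56 in H3R26C (5.83 to 9.97), and the ratio of those ratios was 0.897 (0.560 to 1.44), an interval that held 1. Between H3R26C and H3WT the ratio was 2.33 with DMSO (1.47 to 3.77) and 2.09 with 5-Aza (1.79 to 2.44). Heyl and Notch3 therefore took the same order at the ends of the scale, lowest in H3WT DMSO and highest in H3R26C 5-Aza, but H3R26C DMSO lay above H3WT 5-Aza for Notch3 and below it for Heyl. At equal depth 0.135%, 1.27%, 0.529% and 2.72% of other cells had a Heyl UMI in H3WT DMSO, H3WT 5-Aza, H3R26C DMSO and H3R26C 5-Aza (0.701%, 2.85%, 1.1% and 5.94% without thinning). Muscle-like cells held only 2 and 4 Heyl UMIs, 0.278 times the level of other cells in H3WT (0.0335 to 1.02) and 0.151 times in H3R26C (0.0409 to 0.388).

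Hes1, the repressor most often used as a readout of Notch activity although other signals also drive it (chr16:30064384-30067796, plus strand), stood apart in H3R26C 5-Aza. Its level was 10.5 CPM in H3WT DMSO, 10.8 in H3WT 5-Aza, 8.62 in H3R26C DMSO and 18.0 in H3R26C 5-Aza. In H3WT the 5-Aza to DMSO ratio was 1.03 (0.936 to 1.13), and in H3R26C it was 2.09 (1.91 to 2.28), 2.03 times the H3WT ratio (1.79 to 2.30). The genotype ratio accordingly lay below 1 with DMSO, 0.824 (0.747 to 0.910), and above 1 with 5-Aza, 1.67 (1.54 to 1.82). In H3R26C DMSO mitotic cells held 3.19 CPM of Hes1 (40 UMIs) against 9.58 CPM in non-mitotic cells, and in H3R26C 5-Aza 19.8 against 17.3 CPM. In H3WT they held 9.64 against 10.5 CPM with DMSO (ratio 0.915, 0.697 to 1.18). With 5-Aza in H3WT they held 13.0 against 10.5 CPM (ratio 1.24, 1.02 to 1.51). Restricted to non-mitotic cells, the H3R26C ratio of 5-Aza to DMSO was 1.81. Muscle-like cells held 17.4 CPM in H3WT (46 UMIs) and 14.7 CPM in H3R26C (69 UMIs), 1.62 times (1.17 to 2.17) and 0.818 times (0.634 to 1.04) the other cells of their library.

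Hey1, a related repressor (chr3:8663359-8667256, minus strand), was barely detected, at 0.265, 0.196, 0.274 and 0.566 CPM in H3WT DMSO, H3WT 5-Aza, H3R26C DMSO and H3R26C 5-Aza. With 5-Aza its ratio of H3R26C to H3WT was 2.89 (1.64 to 5.37), and in H3R26C its ratio of 5-Aza to DMSO was 2.07 (1.26 to 3.51). The muscle-like cells held 2 and 3 UMIs, too few to place them in the order.

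**Figure D1:**
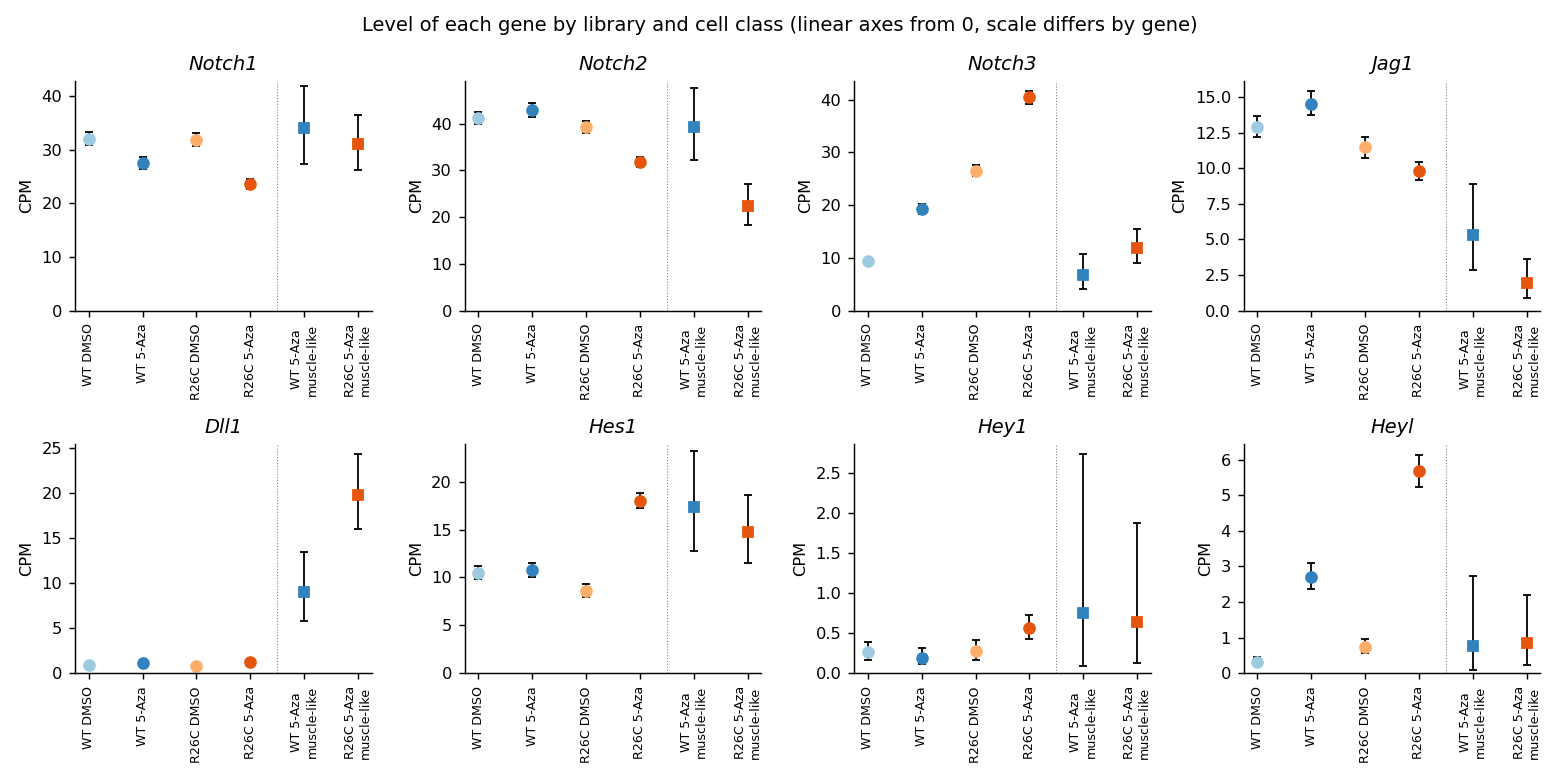
Level of each of the 8 members in CPM (vertical axes, one panel per gene, separate scales) in the other cells of the 4 libraries and the muscle-like cells of the 2 5-Aza libraries, with 95% exact Poisson intervals that cover counting error only. Notch3 stands at 9.35, 19.2, 26.6 and 40.4 CPM across the 4 libraries, and of the 6 groups shown the 2 of muscle-like cells hold most Dll1, at 9.07 and 19.9 CPM.

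The members were set beside 54 further genes of the pathway, counting a gene as higher or lower when it differed at least 2-fold on log2(CPM + 1) with a mean of at least 5 CPM over both sides. Hey1 and Heyl passed that minimum in no comparison, and Dll1 passed it only against muscle-like cells, through the group in which it was high. Between 5-Aza and DMSO, 0 of 5 members passing the minimum were called in H3WT, where 2.04% of all genes were higher and 0.251% lower, and 0 of 5 in H3R26C, where 4.7% were higher and 3.02% lower. Notch3 lay just inside the limit in H3WT (log2 0.96), as did Hes1 in H3R26C (log2 0.98). None of the 42 and 43 pathway genes that passed the minimum was called with 5-Aza in either genotype. Between H3R26C and H3WT, Notch3 was the only one of 5 members called, higher with DMSO (log2 1.41, background 1.21% higher and 0.433% lower) and with 5-Aza (log2 1.04, background 3.55% higher and 2.44% lower). The only other pathway gene called there was Dlk1, a Delta-like protein known as a marker of preadipocytes and not a classical Notch ligand. It stood at 67.8 CPM in H3WT DMSO, 119 in H3WT 5-Aza, 33.2 in H3R26C DMSO and 32.9 in H3R26C 5-Aza, a genotype ratio of 0.489 with DMSO (0.468 to 0.512) and 0.277 with 5-Aza (0.267 to 0.288). Notch3 and Dlk1 lay on opposite sides of the genotype comparison with each treatment.

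Between muscle-like and other cells more genes were called, over all genes as in the pathway. Of 6 members that passed the minimum, Dll1 was higher and Jag1 and Notch3 were lower in both libraries, against a background of 8.59% higher and 15% lower in H3WT and 7.36% higher and 17.6% lower in H3R26C. The median of all genes lay at log2 -0.22 and -0.29 here, and sarcomeric genes took 6.92% and 5.97% of muscle-like UMIs. Relative to those medians Notch3 (log2 -1.37 and -1.68) and Jag1 (log2 -1.31 and -1.88) still lay lower. Over the whole pathway 5 of 44 genes were higher and 5 lower in H3WT, beside 877 higher and 1536 lower of 10215 genes in all. In H3R26C 5 of 45 were higher and 7 lower, beside 749 and 1795 of 10177. These shares lay near the background, and some of the genes called higher (Dll1 and Neurl1a in both libraries, Maml3 in H3WT and Jag2 in H3R26C) were below 5 CPM in the other cells and reached the minimum through the muscle-like cells, so the counts are no result about the pathway. Neurl1a, a ubiquitin ligase that acts on Notch ligands, showed the largest factor, 51.4 against 1.46 CPM in H3WT (ratio 35.3, 27.4 to 45.5) and 60.2 against 2.71 CPM in H3R26C (ratio 22.2, 18.8 to 26.3). Hes6, a family member known to counteract Hes1 and to favour muscle differentiation, stood at 183 against 34.6 CPM in H3WT and 262 against 40.7 CPM in H3R26C. Maml3, a coactivator of the Notch complex, was 3.47 and 2.83 times higher. Fbxw7, which marks the Notch intracellular domain for degradation, stood at 30.2 against 8.89 CPM in H3WT (ratio 3.40) and, without a call, at 14.5 against 7.91 CPM in H3R26C (ratio 1.83). The ligand Jag2 was called in H3R26C (11.5 against 1.76 CPM, ratio 6.54), and in H3WT its ratio of 3.23 (5.29 against 1.64 CPM) fell under the minimum of expression.

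Lower in the muscle-like cells of both libraries were Hdac1, a deacetylase of the repressor complex (40.1 against 88.4 CPM in H3WT, 35.4 against 94.1 CPM in H3R26C), and Dtx3, a Deltex family gene (45.0 against 93.2 CPM, 41.6 against 89.6 CPM). The ubiquitin ligase gene Mib2 was called lower in H3WT (ratio 0.323, and 0.824 in H3R26C). Dlk1 (0.467, and 0.748 in H3WT) and the coactivator gene Maml2 (0.441, and 0.767 in H3WT) were called lower in H3R26C. Numbl, whose product opposes Notch, was called in H3R26C and lay just inside the limit in H3WT, with ratios of 0.456 and 0.505. Of the 10 protease genes that cut the receptors or mature them, 9 passed the minimum and none was called in any of the 6 comparisons. Over all genes the called shares ran from 0.251% to 17.6% per direction, so with 9 genes this is no result about the proteases. Between muscle-like and other cells 8 of the 9 had a log2 ratio below 0 in H3WT and 9 in H3R26C. Over all genes 6357 of 10215 and 6883 of 10177 did. Over the pathway the median log2 ratio was -0.45 in H3WT and -0.44 in H3R26C, below the medians of all genes given above. Whether that gap is particular to the pathway was not tested.

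**Figure D2:**
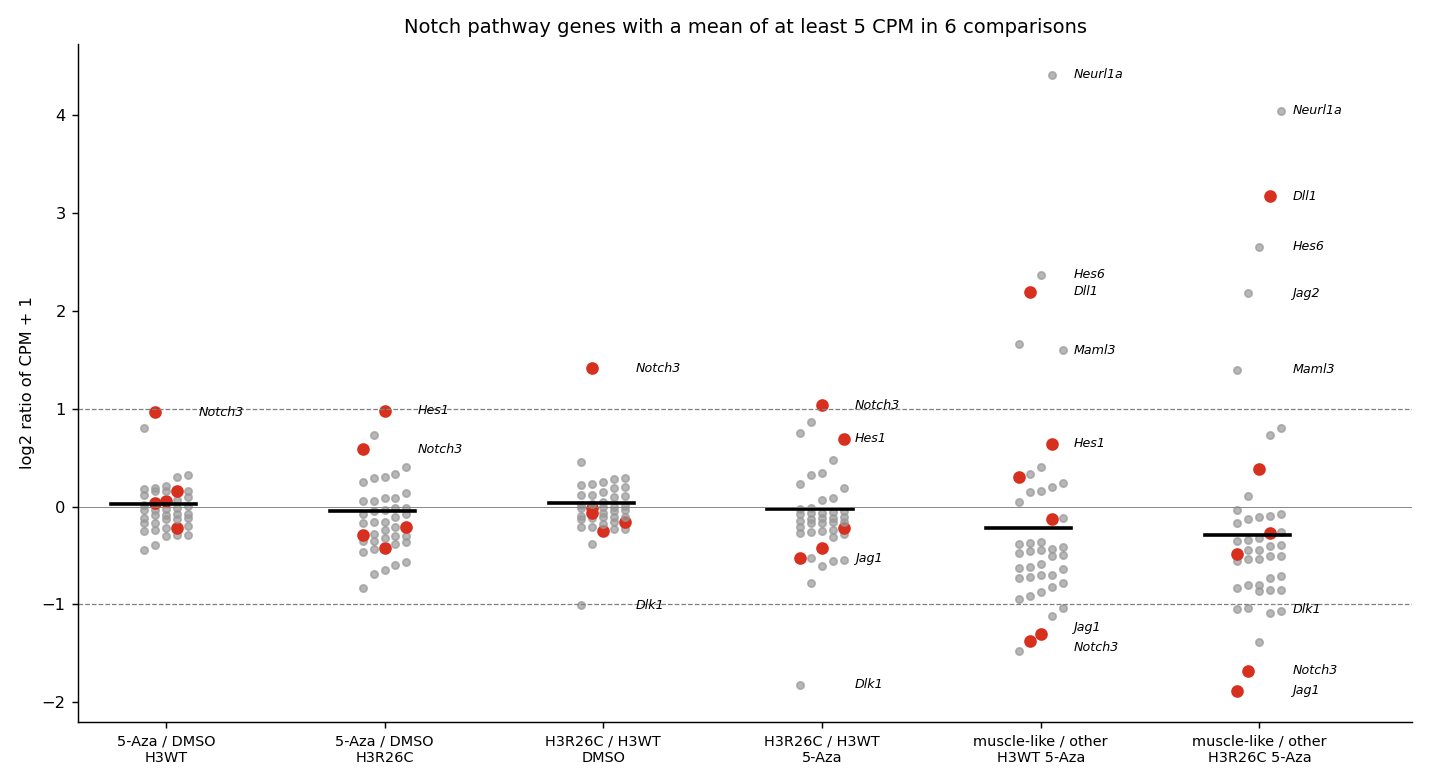
Log2 ratio of CPM + 1 (vertical axis) of each pathway gene with a mean of at least 5 CPM in 6 comparisons (horizontal axis), with members in red, other pathway genes in grey, the median of all genes as a black bar and 2-fold limits dashed. Notch3 lies above the limit in both genotype comparisons (1.41 and 1.04), and Dll1 lies above it and Jag1 and Notch3 below it in both comparisons of muscle-like with other cells.

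Within the 5-Aza libraries the members were then followed along the sarcomeric share of a cell's UMIs, in strata of under 0.1%, 0.1 to 0.3%, 0.3 to 1%, 1 to 5% and at least 5%. Dll1 stood at 0.768, 1.64, 13.0, 12.2 and 6.67 CPM along these strata in H3WT and at 0.787, 2.35, 15.2, 26 and 13.9 CPM in H3R26C. The ligand was thus already higher in cells of 0.3 to 1% than in those below. In the H3WT stratum of 1 to 5% it rested on 14 UMIs in 6 cells. Without the Dll1 UMIs of the 3 cells with most, which stayed in the total, it was at 3.49 CPM. The H3WT stratum of 5% and over was not treated alike, so the order of these strata was not settled. Notch3 went the other way, at 19.9, 14.2, 16.6, 12.2 and 2.67 CPM in H3WT and 40.1, 44.3, 36.0, 18.2 and 5.89 CPM in H3R26C. At 5% and over it was 0.134 (0.0365 to 0.344) times its level under 0.1% in H3WT (4 UMIs) and 0.147 times in H3R26C (14 UMIs). Jag1 was at 14.5, 16.0, 10.8, 10.5 and 1.33 CPM in H3WT and at 9.67, 11.3, 8.16, 2.60 and 1.26 CPM in H3R26C. Its point level too was lowest where sarcomeric RNA was highest, resting there on 2 UMIs in H3WT and 3 in H3R26C. No ratio between neighbouring strata was computed.

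Heyl was not detected in the stratum of 5% and over in either library. The ratio of its level there to that in cells under 0.1% had an interval of 0 to 0.915 in H3WT, only just below 1. In H3R26C that interval was 0 to 0.288. Notch1 lay between 27.1 and 38.0 CPM over the strata in H3WT and between 22.5 and 43.0 CPM in H3R26C, without the drop seen for Notch3. Hes1 differed between the libraries, at 25.3 CPM in the top H3WT stratum (38 UMIs in 22 cells), 2.49 times its level under 0.1% (1.75 to 3.45). In the top H3R26C stratum it was at 13.0 CPM, 0.730 times its level under 0.1% there, with an interval that held 1 (0.494 to 1.04).

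**Figure D3:**
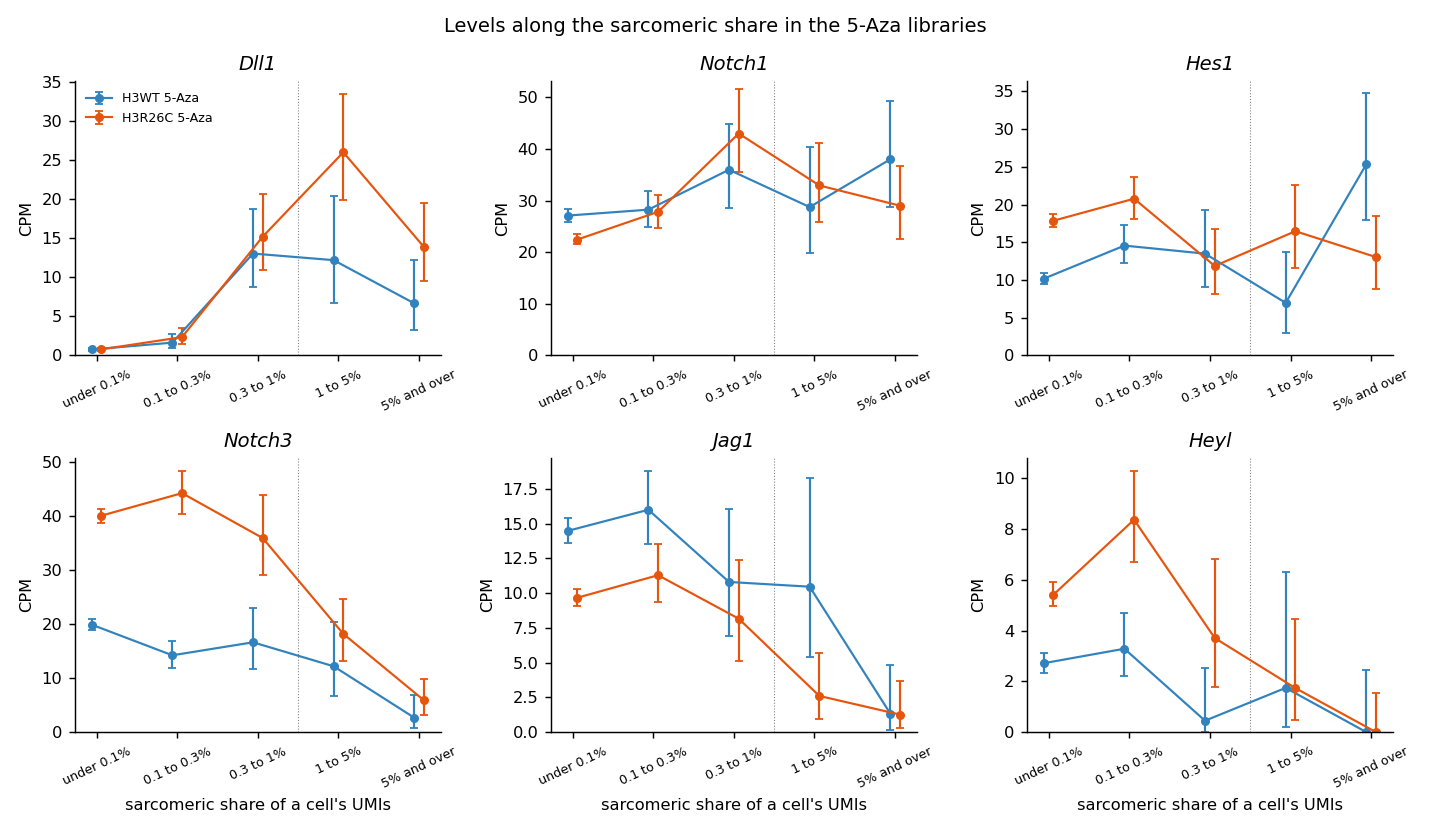
CPM of Dll1, Notch1, Hes1, Notch3, Jag1 and Heyl (vertical axes, one panel per gene) in 5 strata of the sarcomeric share of a cell's UMIs (horizontal axis) in the H3WT and H3R26C 5-Aza libraries, with 95% exact Poisson intervals. Notch2 and Hey1 are not drawn. Dll1 is at 13.0 and 15.2 CPM already at 0.3 to 1%, while Notch3 reaches 2.67 and 5.89 CPM at 5% and over.

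Cells with a UMI of Myog but below the 1% limit were looked at next, 169 in H3WT 5-Aza and 410 in H3R26C 5-Aza. They held 15.5 CPM of Dll1 against 0.745 CPM in other cells without Myog in H3WT, a ratio of 20.8 (13.5 to 31.7), and 11.3 against 0.700 CPM in H3R26C, a ratio of 16.2 (11.4 to 22.9). The level in cells with neither Myog nor the sarcomeric share did not exceed that of the DMSO libraries, 0.978 and 0.833 CPM. Higher levels were met in Myog cells at 0.3 to 1% sarcomeric RNA, 41.1 CPM in H3WT (24 UMIs in 10 of 39 cells) and 30.9 CPM in H3R26C (37 UMIs in 20 of 72 cells). Without the Dll1 UMIs of the 3 cells with most, which stayed in the total, these were 20.6 and 17.6 CPM. The H3R26C stratum of 1 to 5% treated alike was at 17.3 CPM. In the H3WT 5-Aza library 19.7% of all 122 Dll1 UMIs lay in muscle-like cells and 32.0% in other cells with Myog, and in H3R26C 5-Aza 40.1% and 29.7% of 232 UMIs did. The other cells without Myog at that depth held the remaining 48.4% in H3WT and 30.2% in H3R26C, while they made up 94.3% and 91.6% of the cells.

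By the same split the receptors took different sides or none. For Notch2 the interval held 1 in H3WT (ratio 0.887, 0.716 to 1.09) and in H3R26C (ratio 0.958, 0.821 to 1.11). Notch1 was higher in the Myog cells, 47.7 against 26.8 CPM in H3WT (ratio 1.78) and 42.7 against 22.4 CPM in H3R26C (ratio 1.91). Notch3 was lower in H3WT, 12.3 against 19.4 CPM (ratio 0.634), and in H3R26C its ratio of 0.951 had an interval that held 1 (0.831 to 1.09). Jag1 was lower in both, at 9.53 against 14.7 CPM and 5.75 against 10.0 CPM. Summed over cells, those with detected Myog and a sarcomeric share below 1% thus held more Dll1 and Notch1 and less Jag1. Whether the same single cells carry these differences, and their order in time, was not tested.

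Mitotic cells held less Jag1 and Notch2 than non-mitotic cells in most libraries. Notch2 stood at 29.1 against 42.1 CPM in H3WT DMSO, 33.6 against 44.0 in H3WT 5-Aza, 24.9 against 41.8 in H3R26C DMSO and 25.1 against 34.4 in H3R26C 5-Aza, lower in mitotic cells in all 4. Jag1 stood at 12.2 against 13.0, 9.54 against 15.2, 7.01 against 12.2 and 5.51 against 11.4 CPM in the same order. Its interval held 1 in H3WT DMSO only (ratio 0.944, 0.742 to 1.19). For Notch3 the sides differed by library, 13.2 against 9.04 CPM in H3WT DMSO, 18.4 against 19.3 in H3WT 5-Aza, 22.4 against 27.3 in H3R26C DMSO and 28.7 against 44.9 in H3R26C 5-Aza. The order of the 4 libraries for this receptor was nevertheless the same among mitotic cells as among non-mitotic cells.

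**Figure D4:**
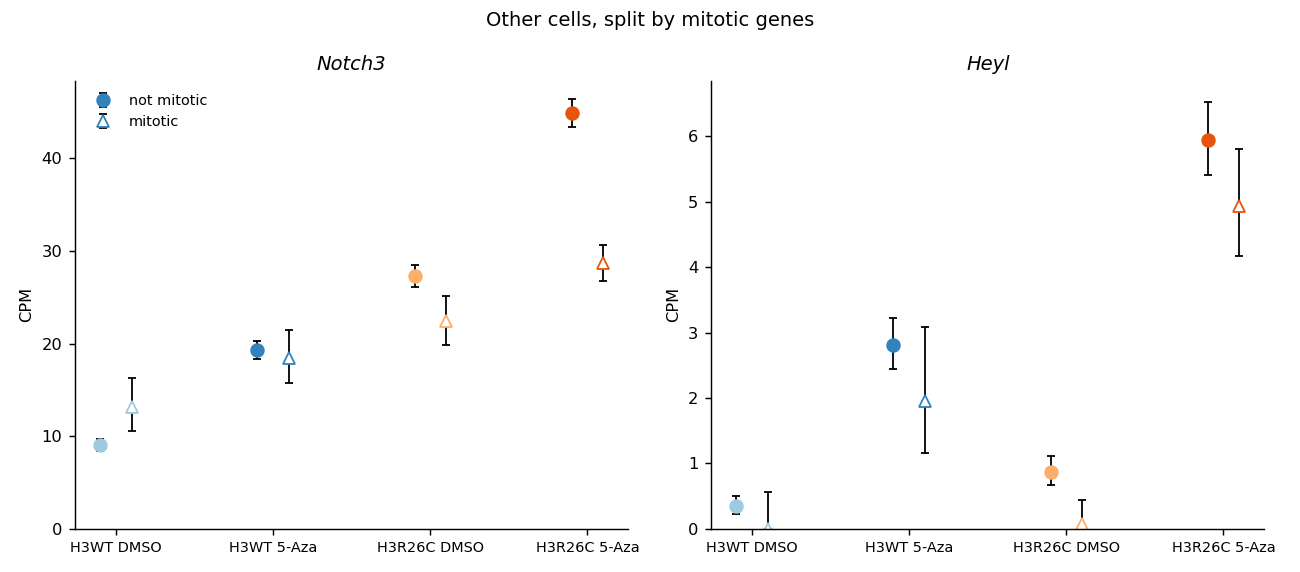
CPM (vertical axes) of Notch3 and Heyl in mitotic and non-mitotic other cells of the 4 libraries (horizontal axis), with 95% exact Poisson intervals. Notch3 keeps its order from H3WT DMSO to H3R26C 5-Aza in both classes, and Heyl is highest in H3R26C 5-Aza in both.

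Whether Heyl and Notch3 were found in the same cells was counted at equal depth in the other cells. Heyl was not counted against Notch1 or Notch2. In H3R26C 5-Aza 4.60% of cells with a Notch3 UMI also had Heyl (3.53 to 5.89), against 2.32% of cells without one (1.95 to 2.73). Hes1 (9.52% against 7.03%), Jag1 (6.75% against 4.52%) and Notch2 (17.7% against 14.2%) were also found more often in those Notch3 cells, so the difference was not limited to Heyl. In H3WT 5-Aza the Heyl shares were 1.24% and 1.27%, and in H3R26C DMSO 0.530% and 0.529%, with no difference visible at this depth. In H3WT DMSO 0 of 153 cells with Notch3 had Heyl.

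For the members other than Notch2 that reached 10 CPM, the 3 genes with the most similar pattern were taken by Pearson correlation of log2(CPM + 1) over 10 groups of cells, made by library, muscle-like or other and mitotic or not, among 8755 genes. The groups share libraries and are few, so the values are descriptions. Nearest to Notch3 were Litaf (0.969), Tgfbi (0.967) and G6pc3 (0.962), and nearest to Dll1 were Amacr (0.994), Hacd1 (0.991) and Iffo1 (0.982). Dll1 was at 0.833 to 1.31 CPM in the other cells and at 9.07 and 19.9 CPM in the muscle-like cells. Its correlations are therefore set by the muscle-like groups, and any gene high in those groups would score high. Jag1 lay nearest to Ccdc102a (0.987), Cat (0.984) and Plagl1 (0.981). Notch1 was most similar to Brd3 (0.939), Ube3b (0.929) and Bcor (0.927), and Hes1 to Mtif3 (0.919), Ddhd1 (0.886) and Mtss1 (0.875).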

How the data were processed

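Single-cell RNA was measured in 4 libraries of C3H10T1/2 cells. The authors aligned reads to mm10 and counted UMIs per gene and barcode with Cell Ranger 6 (6.1.0 in the matrix headers), and the deposited values were raw counts in a filtered matrix. Seurat 4, named in the submitters' processing notes, left no annotation used here. All 4 matrices were mapped to their sample and 0 columns were left unmapped. Groups were taken from the sample titles. The members, gate and lists were chosen with earlier results of these data known.

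Cells were filtered as stated above, and doublets were not removed. Counts were summed over cells per library and class and scaled to CPM (per 1000000 UMIs). Levels had exact Poisson intervals, ratios exact conditional binomial intervals, ratios of ratios log-normal intervals and shares exact binomial intervals, all at 95%. Cells were thinned at random to 5000 UMIs for shares and for the mitotic, Myog and adipocyte-like calls. With 1 library per condition no test was run. Genes were called at 2-fold on log2(CPM + 1), pseudocount 1 CPM, with a mean of at least 5 CPM. The text names all 8 members, up to 5 called genes of the pathway lists (62 genes with the members) in each direction, and 3 similar genes per member that reached 10 CPM, except that those of Notch2 are not reported here. Gene coordinates were read on GRCm38, and counting by strand was not examined, so reads of Notch1 and Notch3 may include those of the overlapping genes on the opposite strand. In simulated counts with Poisson error only, 200 genes were changed, each by more than the 2-fold limit. Of these 93.5% were called for 5-Aza against DMSO in H3WT (9823 genes past the minimum). For muscle-like against other cells in H3WT 5-Aza (10058 genes) 93% were called, and 0.0101% of unchanged genes. Changes near 2-fold and the spread between cells or cultures were not simulated, so these shares do not cover them. The alternatives were another pseudocount, CPM minimum, scaling, cell filter, gate and cell averaging. Python 3.11.15, numpy 2.4.6, scipy 1.17.1, pandas 2.3.3 and matplotlib 3.10.9 were used.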

Additional observations from a re-analysis of the deposited data

Results flagged for a closer look

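Jag1 changed side between the genotypes, and Hes1 between the treatments. The ratio of 5-Aza to DMSO for Jag1 was 1.13 in H3WT and 0.855 in H3R26C, and each interval excluded 1. For Hes1 the ratio of H3R26C to H3WT was 0.824 with DMSO and 1.67 with 5-Aza. With 1 library per condition neither difference was tested, and the intervals cover counting error only. With cells thinned to 5000 UMIs the Jag1 ratio in H3R26C was 0.967. At equal depth 5.50% of H3R26C DMSO (4.87 to 6.19) and 4.91% of H3R26C 5-Aza other cells (4.43 to 5.43) had a Jag1 UMI. In H3WT these shares were 6.12% with DMSO (5.37 to 6.94) and 6.87% with 5-Aza (6.23 to 7.55), so the intervals overlapped in both genotypes. Mitotic cells held less Jag1 than non-mitotic cells and were more frequent in H3R26C 5-Aza. Among non-mitotic cells Jag1 kept both directions, at 15.2 CPM with 5-Aza against 13.0 with DMSO in H3WT. In H3R26C its levels there were 11.4 against 12.2 CPM. Hes1 also kept both directions there, at 9.58 CPM in H3R26C against 10.5 in H3WT with DMSO. With 5-Aza its levels were 17.3 against 10.5 CPM. No intervals were computed for these non-mitotic ratios, so whether they exclude 1 was not tested. Groups were too few for a search for outlying libraries.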

How the results depend on the processing

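With 5-Aza against DMSO in H3WT, where no pathway gene was called, 1 gene was called with a pseudocount of 0.1 CPM, under a stricter cell filter and among non-mitotic cells (Notch3 each time), and 1 with a minimum of 1 CPM or none (Heyl). In H3R26C, also at 0, 1 gene was called with a pseudocount of 0.1 CPM, with median-ratio scaling and under the stricter filter (Hes1), and 2 with a minimum of 1 CPM or none (Heyl and Neurl1a). Between H3R26C and H3WT with DMSO the count of 2 became 1 with a pseudocount of 5 CPM, with a mean of per-cell CPM, without the 5% of cells with the most UMIs, with thinned cells and among non-mitotic cells, each time by the loss of Dlk1. With 5-Aza the count of 2 became 1 with a pseudocount of 5 CPM and under the stricter filter, by the loss of Notch3. The count of 10 for muscle-like cells in H3WT became 16 with the gate at 5%. Dll1 there had ratios of 4.93 to 14.7 and was no longer called under 5 alternatives, while in H3R26C its ratio was 7.56 to 31.2 and was called in all. Over the alternatives Notch3 had ratios of H3R26C to H3WT of 2.77 to 3.02 with DMSO and 1.962 to 2.36 with 5-Aza, and Heyl had ratios of 5-Aza to DMSO of 7.20 to 10.3 in H3WT and 5.01 to 7.81 in H3R26C. Over all alternatives 552 log2 ratios of members stayed within the counting interval and 56 moved beyond it, whereas without thinning 43 shares of cells with a UMI moved and 5 did not. Between muscle-like and other cells the direction turned under at least 1 alternative for Notch1 in H3WT (ratios 0.904 to 1.48), Notch2 in H3WT (0.755 to 1.08) and H3R26C (0.504 to 1.05) and Hes1 in H3R26C (0.726 to 1.01), and for Hey1, which rests on 2 and 3 UMIs. Between 5-Aza and DMSO in H3WT it turned for Dll1 (ratios 0.805 to 1.48) and Hes1 (0.851 to 1.05). Between H3R26C and H3WT with DMSO it turned for Notch1 (0.966 to 1.05) and Hey1 (0.733 to 1.09). The cause of these changes was not tested, apart from fewer or more genes passing a changed minimum. The restriction to non-mitotic cells and the split by Myog were chosen after seeing the data. No paired analysis was possible because the labels pair no libraries and only 1 was made per condition. Hey1, Heyl and Dll1 are limited by depth, since a few UMIs decide their values.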

Other observations

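Cells with at least 3 of 8 adipocyte genes detected at equal depth were few. They were 14, 87, 17 and 49 of the other cells in H3WT DMSO, H3WT 5-Aza, H3R26C DMSO and H3R26C 5-Aza. In both 5-Aza libraries the intervals of all member ratios between these and the non-mitotic other cells held 1. In H3WT DMSO Hes1 was at 53.3 CPM in the adipocyte-like cells against 10.5 CPM in non-mitotic cells, from 15 UMIs in 5 of 14 cells, while in H3R26C DMSO it was at 5.43 against 9.58 CPM (ratio 0.567, 0.0685 to 2.06). In the DMSO libraries the intervals of Notch2 in H3WT (ratio 0.169, 0.0204 to 0.610, 2 UMIs) and Jag1 in H3R26C (ratio 2.22, 1.06 to 4.10, 10 UMIs) also excluded 1. Notch3 was not detected in the adipocyte-like cells of either DMSO library, where the interval of its ratio to non-mitotic cells reached up to 1.45 in H3WT and 0.367 in H3R26C.

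Rbpj, the DNA-binding partner of the Notch receptors, was chosen after its values were seen. It stood inside the 2-fold limit, at 60.2 CPM in H3WT DMSO, 55.4 in H3WT 5-Aza, 82.9 in H3R26C DMSO and 102 in H3R26C 5-Aza. Its 5-Aza to DMSO ratio was 0.920 in H3WT, where that of Notch3 was above 1, and 1.23 in H3R26C. The ratio of H3R26C to H3WT was 1.38 with DMSO (1.33 to 1.43) and 1.84 with 5-Aza (1.77 to 1.90). Among pathway genes other than members that passed the minimum, Rbpj had the highest log2 ratio in both of these comparisons. Of those genes 20 of 37 lay below 0 with DMSO and 29 of 38 with 5-Aza, so Rbpj does not stand for the pathway.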
